A study of Mus musculus with 8 samples.

Results

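The nuclear genes for mitochondrial complex I, its 37 subunits and the 8 assembly factors named Ndufaf, were followed in embryonic mouse ventricles with and without a cardiomyocyte knockout of Rps19bp1. Members were the rows on primary chromosomes whose symbol begins with Nduf followed by a, b, c, s or v and a number, or with Ndufab1 or Ndufaf and a number. The pattern matched 54 of the table's 52778 rows. Besides the 37 subunits and 8 assembly factors it took in 9 other rows, namely Ndufa4, Ndufa4l2 and 7 copies or pseudogenes of subunit genes (Ndufa11b, Ndufa12-ps, Ndufab1-ps, Ndufb4b, Ndufb4c, Ndufs5-ps and Ndufs6b). These 9 were kept apart from the subunits. Of the 54 rows, 53 reached the mean of 1 TPM needed for testing. Ndufa11b did not: it was listed at 0.166 TPM in control replicate 2 and at 0 in the other libraries. The lowest value of a tested row in any library was 7.24 TPM, so no tested row passed only through 1 group.

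The study compared RNA from 4 conditional knockout (cKO) and 4 control libraries of ventricles taken at embryonic day 11.5, each described in the labels as a biological replicate. The cKO embryos carried 2 floxed Rps19bp1 alleles and 1 copy of Xmlc2-Cre, a Cre recombinase driven by a myosin light chain promoter, which acts in cardiomyocytes, whereas the tissue was the whole ventricle with all its cell types. The alleles carried by the controls, and whether embryos were pooled, are not given in the sources used here. The genotype label names wild-type C57BL/6 for all 8 libraries, and the extraction text speaks of cortical neurons and rRNA depletion where the design text speaks of ventricles and a stranded mRNA kit. The Rps19bp1 protein is found in the nucleolus and is a partner of ribosomal protein S19. Its level was 40.9, 44.2, 34.7 and 40.1 TPM in control replicates 1 to 4 and 15.2, 11.8, 13.7 and 19.2 TPM in cKO replicates 1 to 4. It fell by 1.37 on the log2 scale (SE 0.13, limma adjusted p = 0.000508), with every cKO library below every control library.

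Complex I is the entry point of the respiratory chain. It oxidises NADH, passes the electrons over flavin and iron-sulfur clusters to ubiquinone, and pumps protons across the inner mitochondrial membrane. Its matrix arm holds the N module, which binds NADH, and the Q module, which reduces ubiquinone, and its membrane arm holds the proton pumps. A small set of core subunits, conserved from bacteria, does the catalysis, with the hydrophobic core subunits encoded by mitochondrial DNA and the others by the nucleus. The many accessory subunits surround the core and stabilise it. Assembly factors help to build the modules and to join them, and are absent from the finished enzyme. In the heart the complex is known for its part in the switch from glycolysis to oxidative metabolism that accompanies cardiomyocyte maturation.

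Values are TPM, a share of all transcripts in a library that allows for transcript length. Levels of different genes can therefore be set side by side, but the depth behind each value is unknown. Differences are given as cKO minus control in log2(TPM + 1), with limma's p-value adjusted over all tested rows, and an adjusted p under 0.05 counts as a call. Transcripts of the mitochondrial chromosome made up 11.9% ± 0.350 (SD, n = 4) of TPM in control and 14.2% ± 1.39 (SD, n = 4) in cKO, and a share that grows lowers every other TPM. Each difference was therefore also computed after those rows were taken out and the rest rescaled to the same total.

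Levels of the nuclear complex I genes in cKO lay close to those in control. Of the 53 tested rows, 1 was called, the accessory subunit Ndufa1, which was higher. Over all 15541 rows tested, 6.4% were called, 2.16% as higher and 4.23% as lower. No member was called lower, while 4 members (Ndufaf8, Ndufaf7, Ndufv1 and Ndufs3) were lower and 6 higher at an unadjusted p under 0.05. The 10 comprise Ndufa1, 6 more subunits with differences of at most 0.21 in size, 2 assembly factors and Ndufa4, and 23.7% of all rows passed that threshold. After rescaling, Ndufa1 was again the 1 call, against 4.76% of 15875 rows, 2.44% higher and 2.32% lower. On the rescaled values 9 members were higher and 1 (Ndufaf8) lower at an unadjusted p under 0.05, against 22.2% of rows. The values of the groups did not overlap for 6 of 53 members as deposited (11.3%, against 15.6% of all rows) and for 8 of 53 after rescaling (15.1%, against 14.6%). Both shares of non-overlapping members are near those of the whole table.

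The fit bounded the differences closely. All 37 subunits and all 8 assembly factors had a 95% interval, not adjusted for the number of genes, that lay within 0.5 on the log2 scale on either side of 0. For 27 of the 37 subunits and 5 of the 8 assembly factors the interval lay within 0.25. The interval reached 0.13 to either side of the difference for the median subunit and 0.14 for the median assembly factor, from 0.09 (Ndufa8) to 0.34 (Ndufaf6). The intervals of 7 subunits and 2 assembly factors left out 0. The intervals are for the difference between group means. Their standard error comes from the spread between libraries, which limma adjusts with a trend over all tested rows.

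**Figure D1:**
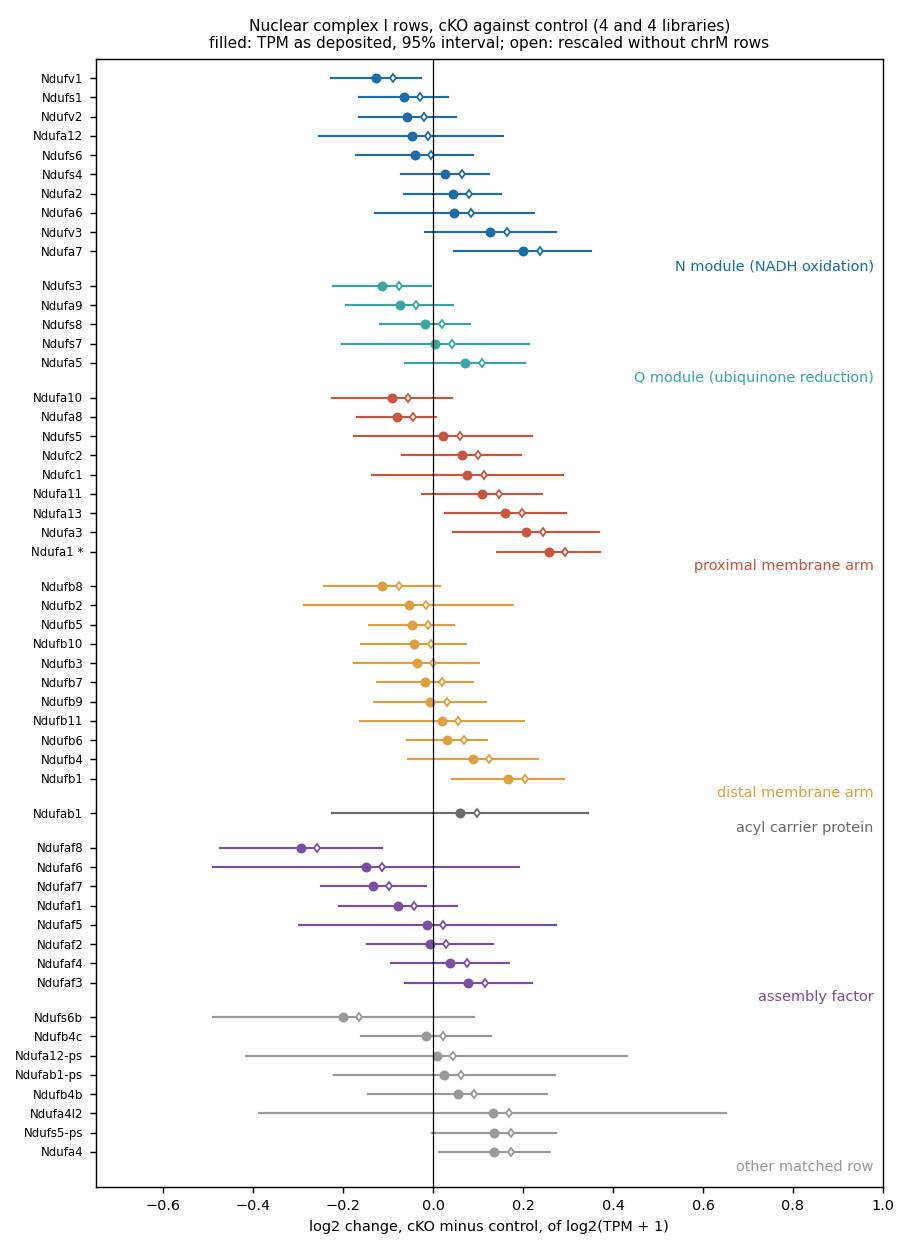
Difference between cKO and control for each tested complex I row but 1, ordered by module, on the horizontal axis in log2(TPM + 1), with 95% intervals for TPM as deposited (filled) and the value after rescaling without mitochondrial rows (open). All subunit and Ndufaf intervals shown lie within 0.5 of 0, with Ndufa1 at 0.26 and Ndufaf8 at -0.29 the farthest of these from 0.

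The 2 classes were first compared by their summed levels. The 37 subunits summed to 8747, 9469, 8914 and 9272 TPM in control and to 9447, 9348, 8864 and 8879 TPM in cKO. The groups overlapped, with means of 9101 ± 329 and 9135 ± 307 TPM (SD, n = 4), and cKO was at 100.4% of control. The 8 assembly factors summed to 231, 226, 231 and 221 TPM in control and to 215, 213, 208 and 217 TPM in cKO. Every cKO library was below every control library, and cKO was at 93.9% of control (213 ± 3.58 against 227 ± 4.49 TPM, SD, n = 4). After rescaling, the assembly factor sums overlapped, with control replicate 4 at 249.9 TPM and cKO replicate 4 at 252 TPM, and cKO was at 96.3% of control. Ndufaf8 alone supplied 8.82 of the 13.9 TPM by which the mean sum of the assembly factors was lower.

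Member by member, the subunits were spread evenly around 0. On TPM as deposited, 19 subunits were higher and 18 lower in sign, with a median difference of 0.00, against -0.02 for all rows tested. Among assembly factors 2 were higher and 6 lower in sign, with a median of -0.05. After rescaling the subunits stood at 23 and 14 (median 0.04), the assembly factors at 4 and 4 (median -0.01) and all rows at a median of 0.01. The subunit median exceeded that of the assembly factors by 0.05. Rescaling multiplies all nuclear rows of a library by the same factor, so it could hardly move this difference, and the 0.05 found there is no second result. Taken per library, the mean log2 level of the subunits exceeded that of the assembly factors by 2.95, 3.05, 2.94 and 3.09 in control and by 3.15, 3.14, 3.06 and 3.04 in cKO. These values overlapped, with means of 3.01 ± 0.07 and 3.10 ± 0.06 (SD, n = 4). The difference between the medians stayed positive when any 1 library was left out, but its size moved with several of them. It was 0.006 without cKO replicate 1, 0.019 without control replicate 3, 0.029 without cKO replicate 2, 0.075 without cKO replicate 4 and 0.084 without control replicate 4. The subunit median was negative without control replicate 1 or 3 or cKO replicate 1 or 2, the lowest being -0.032. It was -0.000 without cKO replicate 3.

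Transcripts of the subunits and of the Ndufaf assembly factors occupied separate ranges of abundance. Mean levels over the 8 libraries ran from 63.1 TPM (Ndufa11) to 552.8 TPM (Ndufb8) among subunits, with a median of 240.7 TPM. Ndufaf assembly factors ran from 14.9 TPM (Ndufaf5) to 42.2 TPM (Ndufaf8), with a median of 26.7 TPM. Assembly factors outside the Ndufaf series, described below, reached 72.1 TPM (Dmac1), which is within the range of the subunits. The average subunit was 8.66 ± 0.455 times as abundant as the average assembly factor in control and 9.26 ± 0.293 times in cKO (SD, n = 4), and the groups overlapped. The most abundant subunit, Ndufb8 of the distal membrane arm, was at 548.6, 600.4, 544.3 and 605 TPM in control and 548.2, 562.5, 503.6 and 509.4 TPM in cKO. The groups overlapped, and the difference of -0.11 did not pass (limma adjusted p = 0.271). At the low end, Ndufa11 of the proximal membrane arm was at 59.9, 60.3, 63.1 and 59.2 TPM in control and 72.2, 65.8, 65.2 and 59.2 TPM in cKO (difference 0.11, limma adjusted p = 0.304), with cKO replicate 4 as low as the controls. Ndufs4, an N module subunit whose loss destabilises that module, was at 98 ± 3.72 and 99.8 ± 2.63 TPM (SD, n = 4), and its difference was 0.03.

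**Figure D2:**
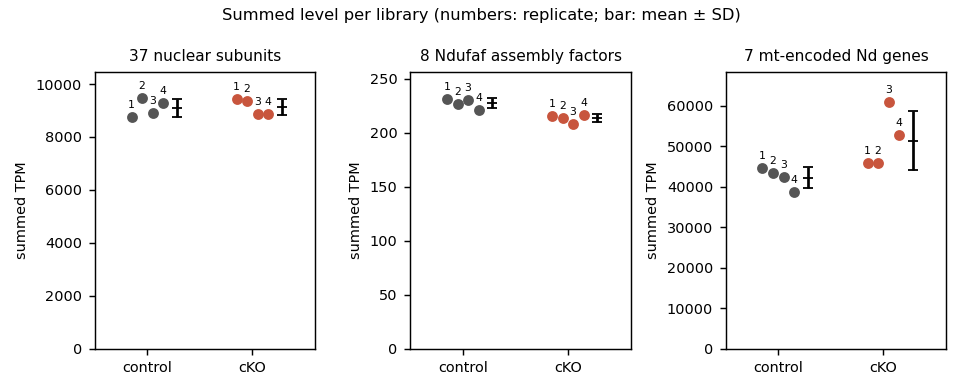
Summed TPM per library of the 37 nuclear subunits, the 8 Ndufaf assembly factors and the 7 mitochondrially encoded Nd genes, with replicate numbers beside the points and bars for mean ± SD (n = 4). The subunit sums of the groups overlap, the assembly factor sums of cKO (208 to 217 TPM) lie below those of control (221 to 231 TPM), and the Nd sums of cKO lie above those of control.

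The 7 nuclear core subunits carry the flavin and the iron-sulfur clusters or shape the ubiquinone site. On TPM as deposited 6 of the 7 were lower in sign, none was called, and the median was -0.07. After rescaling 5 of 7 were lower in sign and the median was -0.03. Ndufv1 binds NADH and the flavin. It was at 312.1, 321.7, 308.8 and 310.1 TPM in control and 287.6, 301.2, 287.7 and 271.3 TPM in cKO. Every cKO library lay below every control library, yet the difference of -0.13 (SE 0.04) did not pass over all rows (limma adjusted p = 0.125, and 0.264 after rescaling). Ndufs3, which lies in the Q module, was at 260.3, 277.7, 265.9 and 284.1 TPM in control and 249, 259.1, 237.3 and 260.6 TPM in cKO. Its highest cKO library only just exceeded its lowest control library, and the difference of -0.11 did not pass (limma adjusted p = 0.196).

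The other core subunits described here differed less. Ndufs1, which holds several of the iron-sulfur clusters of the N module, was at 246 ± 7.72 TPM in control and 235 ± 7.78 TPM in cKO (SD, n = 4), a difference of -0.07. Ndufv2, which holds a cluster next to the flavin, differed by -0.06. Ndufs8, a carrier of clusters on the path to ubiquinone, differed by -0.02 and changed sign to 0.02 after rescaling. Ndufs7, which holds the last cluster before ubiquinone, was at 226.8, 235.3, 222.9 and 266.1 TPM in control and 246.9, 258.9, 195.2 and 256.5 TPM in cKO. Its libraries were scattered widely within both groups and its difference was 0.00. The limma adjusted p of these 4 lay between 0.409 (Ndufs1) and 0.985 (Ndufs7).

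Among the 30 accessory subunits 18 were higher and 12 lower in sign, with a median of 0.03, and 21 were higher after rescaling, with a median of 0.07. Sums of the core subunits were 1941 ± 70.3 TPM in control and 1853 ± 72.9 TPM in cKO, and those of the accessory subunits were 7160 ± 259.7 and 7282 ± 251.3 TPM (SD, n = 4). Both sums overlapped between groups.

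Ndufa1 is an accessory subunit of the proximal membrane arm with a single membrane helix, encoded on the X chromosome, and its loss in cultured cells is known to block assembly of the complex. Its level was 112.6, 112.7, 107.8 and 101.5 TPM in control and 131.3, 133.6, 133.8 and 121.3 TPM in cKO. Every cKO library lay above every control library. Ndufa1 rose by 0.26 (SE 0.05, 95% interval 0.14 to 0.37, limma adjusted p = 0.0222), from 108.7 ± 5.27 to 130 ± 5.91 TPM (SD, n = 4). On rescaled values the rise was 0.29 (limma adjusted p = 0.0164). The call was kept in 15 of 20 alternatives and lost in 5, namely with no filter on low values and when control replicate 3, control replicate 4, cKO replicate 1 or cKO replicate 3 was left out. Over all 20 the difference ranged from 0.23 to 0.31 and the limma adjusted p from 0.0118 to 0.0637. The gene spans X:37187588-37191238 on the minus strand of GRCm38, and its start overlaps Rnf113a1 on the plus strand by 17 bases. Rnf113a1 was at 6.35 ± 0.522 TPM in control and 5.74 ± 0.831 TPM in cKO (SD, n = 4), far below Ndufa1 in every library. With no statement on the use of strand in counting, reads in that overlap cannot be assigned to either gene.

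The subunits next in size of difference were higher in cKO without passing over all rows. Ndufa3, a small accessory subunit of the proximal membrane arm, was at 224.7, 277.5, 250.5 and 234.1 TPM in control and 300.6, 299.3, 276 and 262.2 TPM in cKO. The groups overlapped through control replicate 2, and the difference was 0.21 (limma adjusted p = 0.121). Ndufa7 of the N module was at 221.9, 220.8, 216.2 and 227.8 TPM in control and 286.5, 268.8, 235.4 and 232.1 TPM in cKO. Its groups did not overlap, but cKO replicates 3 and 4 sat just above the controls while replicates 1 and 2 sat well above them (difference 0.20, limma adjusted p = 0.115, and 0.0599 after rescaling). Ndufb1, at the distal membrane arm, was at 212.3, 180, 187.1 and 183.8 TPM in control and 220.2, 212.4, 215 and 207.8 TPM in cKO. Control replicate 1 alone reached the cKO range, and the difference was 0.17 (limma adjusted p = 0.110). Ndufa13, also known as GRIM-19 and the subunit linked to cell death signalling, was at 184.5 ± 12.6 TPM in control and 206.2 ± 12 TPM in cKO (SD, n = 4; difference 0.16, limma adjusted p = 0.144). At the other end, Ndufb8 and Ndufs3 were followed by Ndufa10, at -0.09, and by Ndufa8, at -0.08. The groups of Ndufa8 did not overlap (243 to 255 TPM in control, 231 to 241 TPM in cKO), and its limma adjusted p was 0.245.

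**Figure D3:**
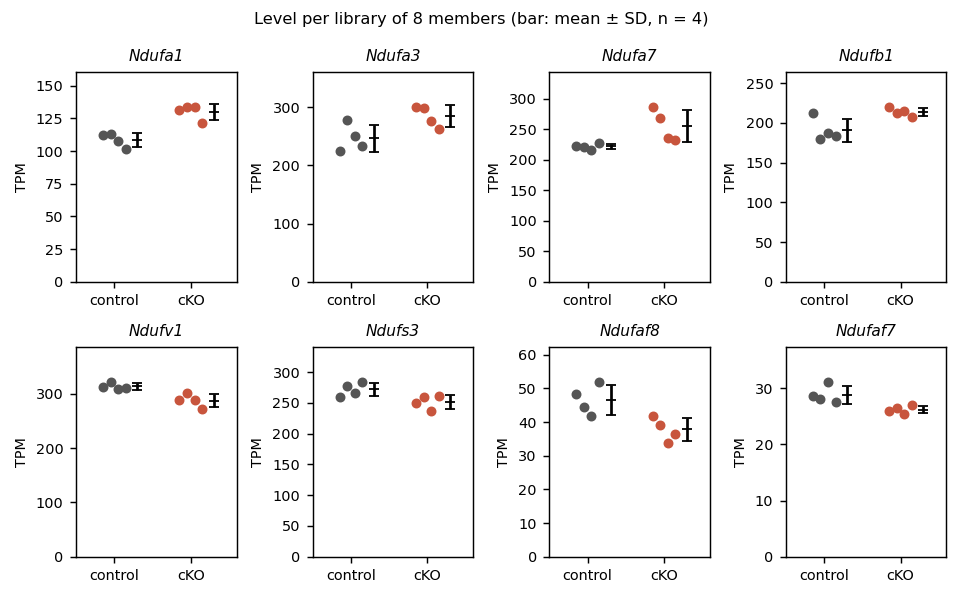
TPM per library of 8 members, with control and cKO on the horizontal axis, 1 point per library and bars for mean ± SD (n = 4). The groups are apart for Ndufa1 and Ndufa7 (higher in cKO) and for Ndufv1 and Ndufaf7 (lower in cKO), while Ndufa3, Ndufb1, Ndufs3 and Ndufaf8 overlap by 1 or more libraries.

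By position in the complex, the proximal membrane arm leaned higher and the Q module lower in sign. In the proximal arm, which joins the matrix arm to the membrane, 7 of 9 subunits were higher in sign, with a median of 0.08, and 0.11 after rescaling. Its sum was 2006 ± 85.2 TPM in control and 2087 ± 70.9 TPM in cKO (SD, n = 4), and the groups overlapped. The N module had 5 of 10 higher (median -0.01), the Q module 2 of 6 (median -0.04) and the distal membrane arm 4 of 11 (median -0.02). Rescaling gave the distal arm 7 of 11 higher and the Q module 3 of 6. Ndufab1, the mitochondrial acyl carrier protein, which serves both complex I and fatty acid synthesis, was at 325.1 ± 57.1 and 336.9 ± 43.8 TPM (SD, n = 4). The remaining subunits of the N module were Ndufa2, Ndufa6, Ndufa12, Ndufs6 and Ndufv3, with differences between -0.05 and 0.13. In the Q module Ndufa5 was at 0.07 and Ndufa9 at -0.07, in the proximal arm Ndufc1, Ndufc2 and Ndufs5 lay between 0.02 and 0.08, and in the distal arm Ndufb2, Ndufb3, Ndufb4, Ndufb5, Ndufb6, Ndufb7, Ndufb9, Ndufb10 and Ndufb11 lay between -0.05 and 0.09. None of these 19 passed over all rows.

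Transcript length went with the difference among the subunits. Ndufa1 has the shortest transcript of the 37, at 419 bases, and the core subunits, with a median of 1623 bases, are longer than the accessory subunits, with a median of 748 bases. Across the 37 subunits the difference correlated with log2 length at a Pearson r of -0.49 and a Spearman rho of -0.53. These are genes measured in the same 8 libraries and no independent replicates, so the values are descriptive. Without Ndufa1 r was -0.43, and across the 8 assembly factors it was 0.39. Over 14847 tested rows with a known length r was -0.04. After the trend of every library with length and GC content was removed, r stood at -0.37 among subunits, with medians of -0.04 for the core and 0.04 for the accessory subunits. The part that length had in the difference between core and accessory subunits was not tested beyond this.

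**Figure D4:**
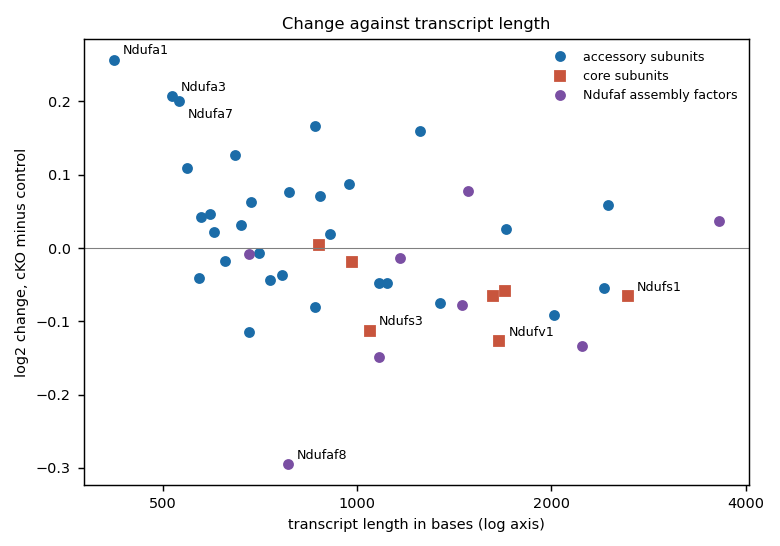
Difference between cKO and control in log2(TPM + 1) against transcript length in bases (log axis), with 1 point per gene for accessory subunits, core subunits and Ndufaf assembly factors. The shortest subunit transcripts, Ndufa1, Ndufa3 and Ndufa7, have the highest differences, and Ndufaf8 lies below all others.

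Of the assembly factors none was called, against 6.4% of all rows. Ndufaf8 and Ndufaf7 had an unadjusted p under 0.05, as did 23.7% of all rows. Ndufaf8 works with Ndufaf5 in maturing the Q module. It was at 48.2, 44.5, 41.9 and 52 TPM in control and 41.9, 39.1, 33.9 and 36.5 TPM in cKO. Only cKO replicate 1 reached the range of the controls, at the level of control replicate 3. The difference of -0.29 (SE 0.08, 95% interval -0.47 to -0.11) was the lowest of all subunits and assembly factors and narrowly missed the threshold (limma adjusted p = 0.0605, and 0.0793 after rescaling). Ndufaf7, a methyltransferase of the mitochondrial matrix, was at 28.7, 28.1, 31.2 and 27.6 TPM in control and 26, 26.4, 25.5 and 27 TPM in cKO. The groups did not overlap, and the difference of -0.13 did not pass (limma adjusted p = 0.159).

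The other 6 showed smaller or more scattered differences. Ndufaf6, needed for early assembly of the Q module, was at 24.9, 24.3, 28.2 and 20 TPM in control and 16.8, 18.7, 26.5 and 26.6 TPM in cKO. Its cKO replicates 1 and 2 were lower than every control and replicates 3 and 4 were within the control range, and the difference was -0.15 (limma adjusted p = 0.606). Ndufaf1, which helps to build the membrane arm, was at 31.1 ± 1.12 TPM in control and 29.4 ± 2.01 TPM in cKO (SD, n = 4; difference -0.08). Ndufaf5, a hydroxylase of Ndufs7, was at 15.1 ± 3.17 and 14.7 ± 1.49 TPM and Ndufaf2, a relative of Ndufa12 that holds its place during assembly, at 34.7 ± 2.3 and 34.5 ± 1.99 TPM (SD, n = 4). Their differences of -0.01 and -0.01 turned to 0.02 and 0.03 after rescaling. Ndufaf3 and Ndufaf4, which act together on the Q module, were higher in sign by 0.08 and 0.04. The limma adjusted p of these last 5 lay between 0.467 and 0.963.

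Assembly of the complex also needs factors outside the Ndufaf series. Of 12 such factors tested, 6 were higher and 6 lower in sign, none was called, and the median was -0.02, and 0.02 after rescaling. Unlike those of the Ndufaf genes, their sums as deposited overlapped, at 523.7 to 536.3 TPM in control and 510.3 to 531.2 TPM in cKO. The lowest was Acad9, an acyl-CoA dehydrogenase relative that serves early assembly, at 36.1 ± 1.54 TPM in control and 32.3 ± 1.32 TPM in cKO (SD, n = 4; difference -0.16, limma adjusted p = 0.0992). Only 1 of the 12 had an unadjusted p under 0.05, against 23.7% of all rows.

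The 120 bases upstream of the start are shown for 4 members, Ndufa1 as the 1 called subunit, Ndufaf8 as the gene with the lowest difference, and Ndufs3 and Ndufaf4 as a core subunit and an assembly factor with a match to a regulator of mitochondrial genes. The sequences are from RefSeq (GRCm38.p6), read 5′ to 3′ on the strand of the gene, and capitals mark, on the strand shown, the letters of ETS/GABP (CCGGAAG) or NRF1 (GCGCATGCG).
Ndufa1, chrX:37191239-37191358, minus strand: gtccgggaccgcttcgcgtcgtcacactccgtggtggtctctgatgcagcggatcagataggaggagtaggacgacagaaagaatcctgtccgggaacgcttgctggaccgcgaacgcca
Ndufaf8, chr11:120098814-120098933, plus strand: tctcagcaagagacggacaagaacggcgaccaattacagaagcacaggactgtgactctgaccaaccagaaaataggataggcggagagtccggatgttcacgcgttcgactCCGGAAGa
Ndufs3, chr2:90904722-90904841, minus strand: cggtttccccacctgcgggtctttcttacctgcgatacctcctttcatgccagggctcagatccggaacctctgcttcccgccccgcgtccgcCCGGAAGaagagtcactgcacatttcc
Ndufaf4, chr4:24897963-24898082, plus strand: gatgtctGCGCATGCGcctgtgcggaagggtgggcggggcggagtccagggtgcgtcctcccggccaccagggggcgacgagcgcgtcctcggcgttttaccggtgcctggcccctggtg

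NRF1, the ETS factor GABP and YY1 are known to bind promoters of respiratory chain genes, so windows from 250 bases before to 50 after the start were searched on both strands for these letters and for YY1 (AAGATGGCG). A window was found for 40 of the 45 subunits and assembly factors and for 27025 genes in all. NRF1 letters, which nearly read the same on both strands so that 1 site can match on each, stood in 4 of the 40 (Ndufa8, Ndufa11, Ndufaf4 and Ndufaf5, 10%), against 1.95% of all genes. ETS/GABP letters stood in 6 (Ndufaf1, Ndufaf8, Ndufb6, Ndufb7, Ndufs3 and Ndufs8, 15%), against 9.93%. YY1 letters stood in 6 (Ndufa9, Ndufaf8, Ndufc1, Ndufs4, Ndufs6 and Ndufs7, 15%), against 1.64%, and all 6 of these matches lay after the start, within the transcript. In Ndufaf8 the ETS/GABP letters ended 2 bases before the start and the YY1 letters began 11 bases after it. The Ndufa1 window held none of the 3 exact strings. A match is a description of the letters and no evidence of binding.

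The 7 complex I subunits encoded by mitochondrial DNA were all higher in sign. Their summed level was 44623, 43289, 42432 and 38727 TPM in control and 45766, 45825, 61012 and 52793 TPM in cKO. Every cKO library lay above every control library, with cKO replicate 3 the highest, and cKO was at 121.5% of control. All rows of the mitochondrial chromosome together were at 118.8% of control, also without overlap between the groups, so the rise was not particular to the Nd genes. Called among the 7 Nd genes were mt-Nd3 (0.43, limma adjusted p = 0.00774), mt-Nd4 (0.38, 0.0255) and mt-Nd4l (0.37, 0.0366), while mt-Nd5 (0.32), mt-Nd2 (0.26), mt-Nd6 (0.22) and mt-Nd1 (0.18) did not pass. Of all rows tested, 2.16% were called higher. Per gene, the mitochondrially encoded subunits stood at 24.6 ± 2.04 times the nuclear subunits in control and 29.8 ± 5.12 times in cKO (SD, n = 4). The ratios overlapped between groups, since cKO replicates 1 and 2, at 25.6 and 25.9, lay within the control range. Nuclear and mitochondrial subunits ran in opposite order within cKO: the nuclear sum was higher in replicates 1 and 2 and the mitochondrial sum in replicates 3 and 4. After rescaling, the nuclear sums were 10885, 10774, 10573 and 10339 TPM in cKO, again higher in replicates 1 and 2.

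Set beside the other respiratory complexes, nuclear complex I held few calls, as they did. None of 4 complex II subunits was called, and all 4 were lower in sign, with a median of -0.13. None of 9 complex III subunits was called as deposited (median 0.02), and after rescaling Uqcr11, a small subunit of that complex, rose by 0.18 (limma adjusted p = 0.0485). Of 12 complex IV subunits 1 was called: Cox7a1, the heart and muscle isoform, rose by 0.17 from 113.1 ± 2.19 to 127.1 ± 3.97 TPM (SD, n = 4, limma adjusted p = 0.0414), and the list's median was 0.06. None of 15 ATP synthase subunits was called, with a median of -0.07. At an unadjusted p under 0.05 there were 3 in complex II, 2 in complex III, 3 in complex IV and 4 in ATP synthase. After rescaling these counts were 1, 2, 5 and 2, and the medians were -0.09, 0.06, 0.09 and -0.03, in the same order. Of all rows, 23.7% passed that threshold as deposited and 22.2% after rescaling. No difference between the complexes was tested.

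**Figure D5:**
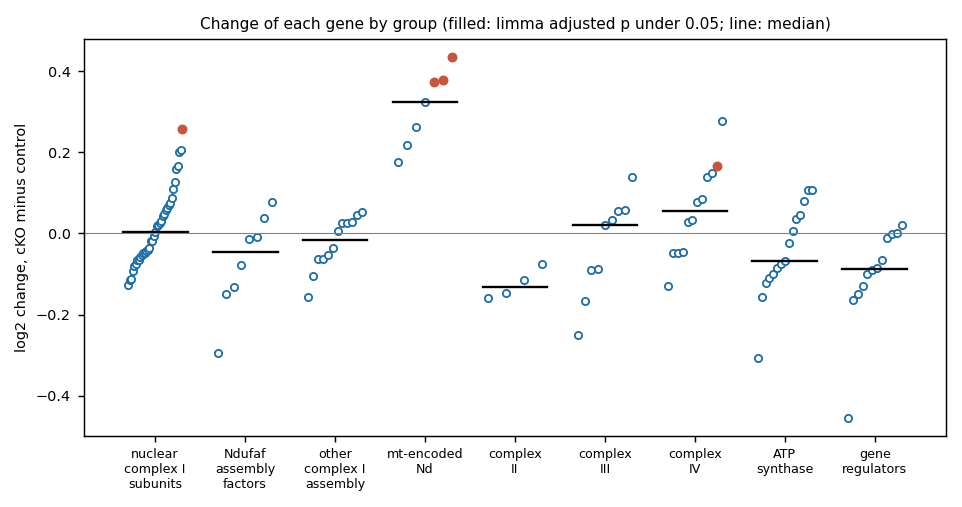
Difference between cKO and control in log2(TPM + 1) of each gene, by group on the horizontal axis, with filled points for a limma adjusted p under 0.05 and lines for group medians. Nuclear complex I holds 1 filled point, Ndufa1, at 0.26, complex IV holds Cox7a1 and the mitochondrially encoded Nd genes hold 3.

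Some matched rows are no complex I subunits or are copies of their genes. Ndufa4, named as a complex I subunit but assigned to complex IV by later work, was more abundant than any subunit, at 769.8, 734, 696.3 and 677.9 TPM in control and 828.5, 796.7, 777 and 759 TPM in cKO. Only control replicate 1 reached the cKO range (difference 0.14, limma adjusted p = 0.170). Its paralog Ndufa4l2, a hypoxia-induced gene, was at 10.6 ± 3.04 and 11.8 ± 3.74 TPM (SD, n = 4), with wide scatter in both groups. Ndufa12-ps, at 136.5 ± 35.9 TPM in control and 134.6 ± 22.2 TPM in cKO (SD, n = 4), was listed above Ndufa12 itself, at 108.4 ± 14.7 and 104.2 ± 7.12 TPM. It took 55.1% of the sum of both rows in control and 56.1% in cKO. Ndufb4b and Ndufb4c together took 32.1% and 31.2% of the Ndufb4 sum, and the shares were between 5.31% and 9.8% for the copies of Ndufab1, Ndufs5 and Ndufs6. Reads of near-identical copies may have been split between these rows, so the levels of Ndufa12, Ndufb4, Ndufab1, Ndufs5 and Ndufs6 are uncertain by these shares. Sums over gene and copies were 244.9 ± 42.1 and 238.8 ± 28.9 TPM for Ndufa12 and 261.9 ± 14 and 275 ± 20.1 TPM for Ndufb4 (SD, n = 4), overlapping between groups. None of the 8 tested rows outside the subunits and assembly factors was called, and their differences ran from -0.20 (Ndufs6b) to 0.14 (Ndufs5-ps and Ndufa4). Of all 53 tested rows, 20 overlap another row of the table. Ndufs1 and Ndufa13 are among those that overlap a row on the other strand, with the same uncertainty about strand as for Ndufa1. Ndufs7, Ndufv2, Ndufa10, Ndufaf2 and Ndufaf5 overlap a row on their own strand, where reads could be ambiguous even if strand was used. The same holds for the copies Ndufa12-ps, Ndufb4b, Ndufb4c and Ndufs5-ps.

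Markers of the cell types in the ventricle moved between the groups as well. All 12 cardiomyocyte markers were present, summing to 45476 to 49789 TPM in control and 44171 to 46837 TPM in cKO, with 1 called lower as deposited (Nkx2-5, -0.48, limma adjusted p = 0.0453), none after rescaling, and a median of -0.07. All 6 epicardial markers were higher in sign, with 4 called higher as deposited and 5 after rescaling, against 2.16% and 2.44% of all rows. Their summed range was 253.5 to 283.2 TPM in control and 309.3 to 390.6 TPM in cKO. All 7 mesenchymal markers were higher in sign and 4 were called higher on both scales. Their sums ran from 541.4 to 679.5 TPM in control and from 770.5 to 977.5 TPM in cKO. Of 8 endothelial markers 7 were higher in sign and none was called, with summed ranges of 725.3 to 769.7 and 770.8 to 876.1 TPM. The 9 erythroid markers (2318 to 8403 and 2100 to 4466 TPM) and the 6 macrophage markers (63.7 to 86.8 and 69 to 117.3 TPM) overlapped between groups, with none called. By sign, all 9 erythroid markers were lower, all 6 macrophage markers higher and 11 of the 12 cardiomyocyte markers lower. Of 6 neuronal markers 5 were under a mean of 1 TPM. In bulk tissue, fewer cells of a type and less RNA per cell cannot be told apart, and the part of these shifts in the values of the complex I genes was not tested.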

How the data were processed

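RNA was measured in 4 cKO and 4 control ventricle libraries, grouped by the labels, which put all 8 in 1 batch. The values are TPM as deposited by the authors, per the file headers, for 52778 rows, and each library sums to 1000000 within rounding. The submitters' processing notes name FastQC, Trim Galore 0.6.7, HISAT2 2.2.1, StringTie 2.2.1, featureCounts, DESeq2 and the GRCm38 build. Which tool made the TPM values, and whether strand was used, is not given in the sources used here. TPM keeps no depth, so the precision stated is that between libraries. All 54 matched rows have the start and end that RefSeq gives on GRCm38.p6, and 4 rows on alternate scaffolds were left out.

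Values were analysed as log2(TPM + 1), which understates changes of low genes, in R 4.3.3 with limma 3.58.1 (lmFit and eBayes, trend on, two-sided tests, Benjamini-Hochberg over the 15541 rows whose mean TPM reached 1). The procedure was also run on simulated data with noise drawn independently for each gene, and no statement here rests on that run. Class medians carry no p-value. Alternatives were rescaling without mitochondrial rows or without those and globin rows, pseudocounts of 0.1 and 5, no filter, a mean TPM of at least 5, quantile and median-ratio scaling, no trend, array weights, removal of each library's GC and length trend (splines, 4 degrees of freedom), a replicate block, every row of the subunit pattern counted as a subunit, and leaving out each library. Transcript length and GC content are medians of principal transcripts in GENCODE M21.

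The members and lists were chosen with earlier results of these data known. Named were the core subunits, the Ndufaf genes, every called member, the 3 highest and 3 lowest differences among subunits, the 2 highest and 2 lowest levels, the rows that are no subunits, the mitochondrially encoded Nd genes and called members of the other lists. The values of 1 subunit that the rule names are not reported here, though it is counted in the classes. Ndufb1, Ndufa13, Ndufa8, Ndufa10, Acad9, Nkx2-5, Gabpa, Polg and the genes with the widest scatter were named after their values were seen. Ppargc1a was named outside the rule. Modules were assigned by hand, and Ndufb1 was added to the distal arm after the table was seen. The assembly factor Coa1 was not matched. Figures were drawn with matplotlib 3.10.9.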

Additional observations from a re-analysis of the deposited data

How the results depend on the processing

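The count of called members that were higher was 1 as reported, 0 with no filter on low values and 3 after quantile normalization (Ndufa1, Ndufa7 and Ndufb1), and 0 to 2 when 1 library was left out. The count called lower was 0 in every alternative. The subunit median of 0.004 changed sign without any 1 of 4 libraries and was -0.000 without cKO replicate 3. It was 0.064 after quantile normalization and ran from -0.032 to 0.025 over left-out libraries (-0.032 without cKO 1, -0.021 without control 1 or cKO 2, -0.010 without control 3). The assembly factor median of -0.046 was -0.010 without mitochondrial rows and -0.012 without those and globin rows, and ran from -0.085 to -0.029 over left-out libraries. The difference between the medians, 0.050, ran from 0.006 to 0.084 over left-out libraries and was 0.083 after quantile normalization and 0.094 with array weights. The causes were not tested.

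Same-numbered libraries did not deviate together over all tested rows (correlations of -0.01, 0.07, 0.06 and -0.09). Libraries with different numbers were not compared in this way, so the values cannot exclude a pairing by number. The main fit used no pairing. A replicate block gave 420 calls over all rows against 994, kept Ndufa1 as the 1 member called higher (limma adjusted p = 0.0386) and none lower, with class medians of 0.004 and -0.046 and a difference of 0.050.

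Of 578 alternative values of 29 named genes, 528 kept their direction and their side of the threshold and 44 reversed, 24 of these on leaving out a library. Reversed without mitochondrial rows, without those and globin rows, by quantile and by median-ratio scaling were Ndufs8 (0.019, 0.017, 0.050 and 0.009), Ndufaf2 (0.029, 0.027, 0.034 and 0.019), Ndufaf5 (0.022, 0.020, 0.001 and 0.012) and Ndufb4c (0.021, 0.019, 0.023 and 0.011). Ndufv2 was 0.002 after quantile normalization. With the GC and length trend removed Ndufaf2 was 0.001, Ndufaf5 0.013 and Ndufa12-ps -0.007. Over left-out libraries the ranges that crossed 0 were -0.192 to 0.135 (Ndufa12-ps), -0.031 to 0.328 (Ndufa4l2), -0.044 to 0.107 (Ndufab1-ps), -0.049 to 0.031 (Ndufaf2), -0.098 to 0.108 (Ndufaf5), -0.000 to 0.138 (Ndufb4b), -0.046 to 0.032 (Ndufb4c), -0.037 to 0.099 (Ndufs7) and -0.040 to 0.005 (Ndufs8). No counting error could be given, since the depth is unknown.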

Other observations

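The spread within groups differed among the subunits. The pooled coefficient of variation had a median of 5.83% and ran from 1.99% to 15.5%, with 6 of 37 above 10%. The most variable, Ndufab1, was at 259.7, 386.2, 297.5 and 357 TPM in control and 293.7, 305, 379 and 370.1 TPM in cKO. Ndufb2, next at 12.9%, was at 132.4, 185.9, 142.5 and 158.1 TPM in control and 140.9, 135.6, 146.7 and 170.1 TPM in cKO. In both genes control replicates 2 and 4 were above 1 and 3, as in 16 of 37 subunits, and in 3 of 37 replicates 1 and 3 were above 2 and 4. In cKO, replicates 1 and 2 were both above 3 and 4 in 21 of 37 subunits, Ndufa7 among them, and below both in 2. Over the 8 libraries the mean correlation between the deviations of pairs of subunits was 0.29, against -0.04 for pairs of assembly factors and 0.01 for all rows. All pairs share the same libraries and a fixed TPM total.

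Of 12 regulators of mitochondrial genes 10 were lower in sign, with a median of -0.09, and none was called. Gabpa (-0.15) and Polg (-0.16) were the 2 at an unadjusted p under 0.05, against 23.7% of all rows. After rescaling 8 of the 12 were lower in sign and the median was -0.05. None then had an unadjusted p under 0.05, against 22.2% of all rows. Ppargc1a, a coactivator of mitochondrial genes, was at 33.4 ± 1.03 TPM in control and 30.5 ± 2.28 TPM in cKO (SD, n = 4, limma adjusted p = 0.223). Yy1 was at 109.9, 109.4, 100.6 and 79.3 TPM in control and 50.5, 55.4, 108.6 and 88.1 TPM in cKO, with cKO replicates 1 and 2 below every other library (difference -0.45, limma adjusted p = 0.246). The mitochondrially encoded mt-Nd6 was at 9087, 9000.3, 8931 and 6735 TPM in control and 7177, 7334, 14335 and 11946 TPM in cKO, so that cKO replicates 3 and 4 were above and replicates 1 and 2 within the control range.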
